A study of Drosophila melanogaster with 96 samples.

Results

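The 10 genes described here make, package, recycle and sense the biogenic amines dopamine, serotonin and octopamine in fly heads. They were chosen by name: each row of the deposited table whose FlyBase symbol was ple, Ddc, Vmat, DAT, SerT, Tdc2, Tbh, Dop1R1, Dop2R or Oamb was taken, and all 10 were found among the 17610 genes of the table. RNA-seq libraries had been made from heads of adult male Drosophila melanogaster of the ISO1 strain, the inbred stock from which the fly reference genome was read. No transgene or drug is named in the labels, and every group shares strain, sex and tissue. Flies of one group had alternating light and dark phases of 12 h each (LD) at 25 °C, and those of the other groups stayed in continuous darkness (DD) at 18 °C, 25 °C or 29 °C. Heads were collected at hours 0, 4, 8, 12, 16 and 20 of days 4 and 5 with 2 replicates per time point, so each condition has 24 libraries and the series has 96. The labels call the replicates biological but do not say whether they came from separate fly cultures, so p-values measure the spread between these samples. They do not say how many heads went into a sample, how old the flies were, from what event the days are counted or whether hour 0 is lights-on.

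Dopamine is made from tyrosine by tyrosine hydroxylase (ple) and then by Dopa decarboxylase (Ddc), and serotonin synthesis uses the same decarboxylase. Octopamine, the insect counterpart of noradrenaline, is made from tyrosine by tyrosine decarboxylase (Tdc2 in neurons) and tyramine β-hydroxylase (Tbh). The amines are loaded into vesicles by one transporter (Vmat), dopamine and serotonin are taken back up by DAT and SerT, and their signals are read by G-protein-coupled receptors such as Dop1R1, Dop2R and Oamb. In the fly brain dopamine is known for promoting wakefulness and for its part in associative memory, and outside neurons ple and Ddc supply the cuticle with its tanning and pigment precursors.

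Library totals were 17.3 to 34.7 M counts (M is 1e+06) with a median of 21.1 M, and levels are given as CPM, counts per 1e+06 after TMM scaling. Levels were compared with edgeR's quasi-likelihood test in 1 model over all 96 libraries, and a gene is called where the Benjamini-Hochberg adjusted p-value over the 10702 tested genes is under 0.05. Markers of the labelled tissue were present in every library, with the neuronal gene elav at 62.2 CPM or more, the glial gene repo at 39.2 CPM or more and the rhodopsin gene ninaE at 16895 CPM or more. Libraries of hours 0, 8 and 16 stood apart from those of hours 4, 12 and 20. The summed level of 10 photoreceptor markers was below every library of hours 4, 12 and 20 in 10 of the 12 libraries of hours 0, 8 and 16 in LD, and in 8 of 12 at each temperature in darkness. The summed level of 8 muscle markers was above every library of the other hours in 12 of 12 libraries in LD, and in 11, 8 and 12 of 12 at 18 °C, 25 °C and 29 °C in darkness. The same hours were sampled in all 4 conditions, and counts of calls are therefore also given over hours 4, 12 and 20 alone, a choice made after seeing the data.

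All 10 genes passed the filter on low counts, with the least counted, DAT, between 119 and 334.5 counts in every library. Per kilobase of exon, the order of the mean levels in darkness at 25 °C was Ddc (45.4 ± 5.67 CPM per kb), Vmat (43.6 ± 4.43), ple (15.9 ± 1.82), Tbh (8.63 ± 0.93), Dop2R (6.58 ± 1.48), SerT (5.74 ± 0.45), Oamb (4.72 ± 0.56), Tdc2 (4.07 ± 0.67), Dop1R1 (3.06 ± 0.71) and DAT (2.65 ± 0.31; SD, n = 24). Neighbours in this order lay within the larger of their SDs for Ddc and Vmat, for Dop2R and SerT, for Oamb and Tdc2 and for Dop1R1 and DAT. The gap between Vmat and ple was far wider than either SD. The genes lie on 5 chromosome arms (positions are from BDGP6.54; the build behind the deposited table is not given in the sources used here), and exons of 2 of them overlap a gene on the opposite strand. Vmat shares 2129 bases of exon with CG13330, which stayed near 1.86 ± 0.70 CPM in darkness at 25 °C, and Ddc shares 88 bases with CG10561, which was at 47.3 ± 3.35 CPM there. The strand setting of the counting is not given in the sources used here.

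**Figure D1:**
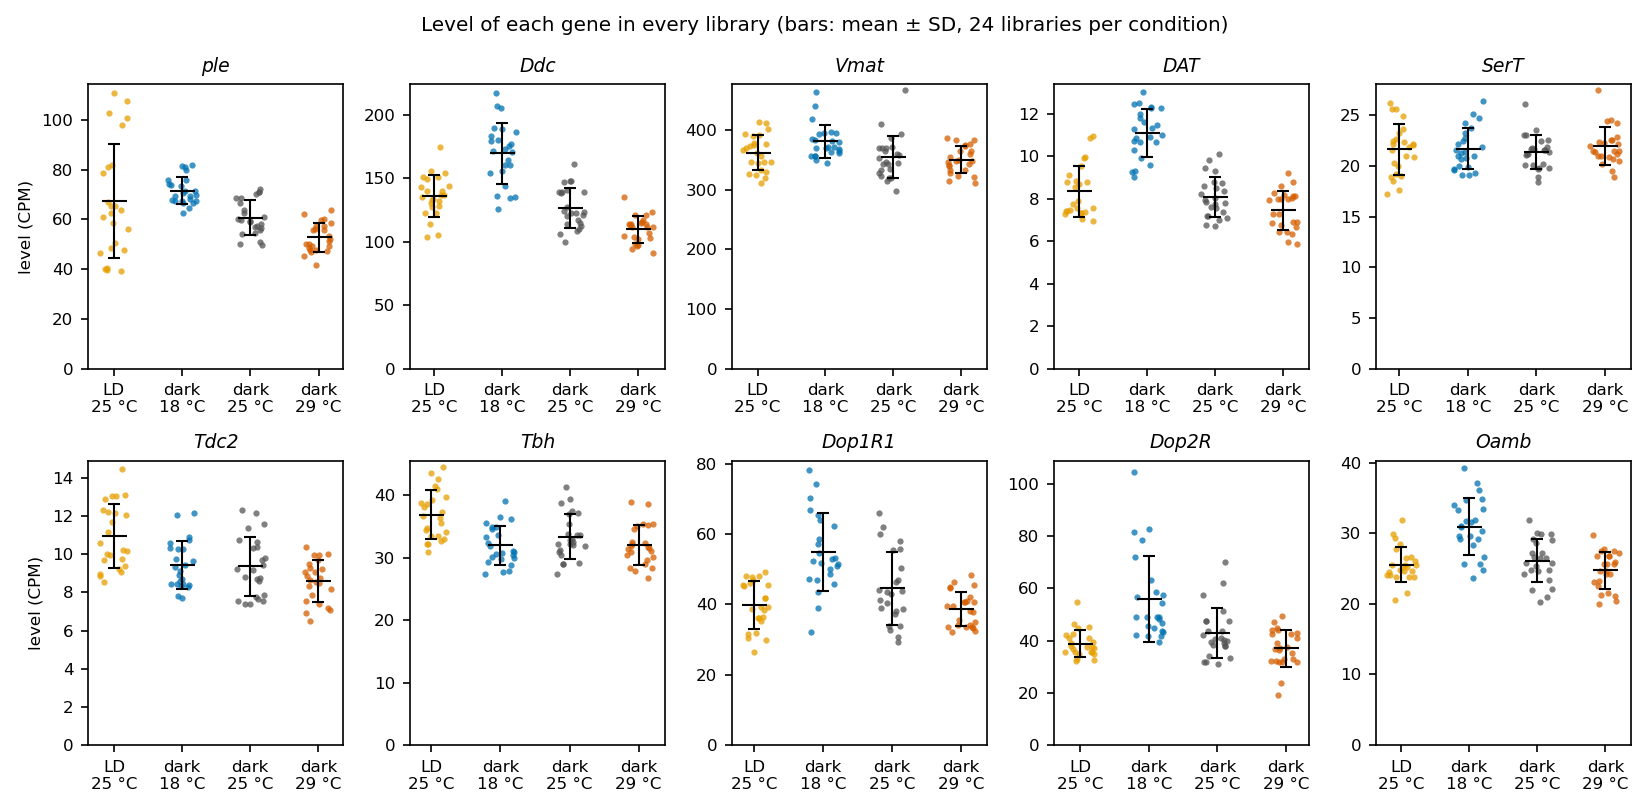
Level of each of the 10 genes (vertical axis, CPM, starting at 0) in all 24 libraries of each condition (horizontal axis); black bars are mean ± SD. ple spans 39.3 to 110.7 CPM in the light-dark cycle but only 49.8 to 72.3 CPM in darkness at 25 °C, and 7 of the genes have their highest mean in darkness at 18 °C.

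In the cold most of the dopamine genes were higher, while the octopamine enzymes and the serotonin transporter had no called change. In darkness at 18 °C, 7 of the 10 genes were called higher than at 25 °C and 0 lower, where 66.8% of all tested genes were called, with 32.7% called higher. The share of the 10 genes that was called was close to that of all genes, and the share called higher was above it. The median log2 change of the 10 genes was 0.24, against -0.0035 over all tested genes. The 7 were both dopamine synthesis enzymes, Vmat, DAT and all 3 receptors, with folds of 1.07 to 1.37. Over hours 4, 12 and 20 alone the count was also 7, where 6754 of the 10702 tested genes were called. The 24 and 24 libraries overlapped for each of the 10 genes, a separation that 4.64% of all tested genes reached. In whole heads, more cells of a type and more RNA per cell cannot be told apart.

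Between 29 °C and 25 °C fewer were called. At 29 °C 3 of the 10 genes (ple, Ddc and Dop1R1) were called lower and 0 higher, where 26.8% of all tested genes were called and 13% were called lower, so the share called was near that of all genes. None of the 10 had libraries without overlap, where 0.0654% of all tested genes did. The count was 2 over hours 4, 12 and 20 alone and 1 over hours 0, 8 and 16 alone, while the count over all tested genes was 2201 and 938 at those hours, against 2864 over all 6 hours. Between 29 °C and 18 °C, the widest step, 8 of the 10 genes were called lower and 0 higher, where 74.5% of all tested genes were called and 36.5% were called lower. SerT and Tbh were the 2 not called there. The log2 changes of this step were -0.63 for Ddc, -0.58 for Dop2R, -0.58 for DAT, -0.50 for Dop1R1, -0.44 for ple, -0.32 for Oamb, -0.13 for Tdc2 and -0.12 for Vmat. Vmat was not called on day 5 alone (-0.07, adjusted p = 0.182). ple, Ddc and Dop1R1 were called in both steps around 25 °C, higher at 18 °C and lower at 29 °C, a pattern called in 10.2% of all tested genes. These comparisons share the 25 °C or the 18 °C libraries, so their counts are not independent.

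Among the synthesis enzymes, ple (FBgn0005626; 3L, 6713356 to 6719525, minus strand), the rate-limiting tyrosine hydroxylase of dopamine synthesis, had a lowest, median and highest level of 62.5, 70.1 and 81.9 CPM at 18 °C, 49.8, 59.4 and 72.3 CPM at 25 °C and 41.5, 51.8 and 63.7 CPM at 29 °C in darkness. The ranges of neighbouring temperatures overlapped, but all 24 libraries at 18 °C were above the median at 25 °C. Relative to 25 °C, the log2 change was 0.24 ± 0.03 at 18 °C (SE; adjusted p = 6.3e-10) and -0.20 ± 0.03 at 29 °C (adjusted p = 1.2e-06). The first was in the same direction at 9 of 12 time points and the second at 12 of 12. At hour 0 the means at 18 °C and 25 °C were both 67.5 CPM. The size of the change at 18 °C depended on the replicate, at 0.13 without replicate 1 and 0.35 without replicate 2, and it was called in both. The 29 °C call was lost without replicate 2 (log2 change -0.11, adjusted p = 0.155) and when libraries were scaled to neuron markers (adjusted p = 0.0586).

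Ddc (FBgn0000422; 2L, 19116483 to 19120306, minus strand), the decarboxylase that makes both dopamine and serotonin, had a lowest, median and highest level of 125.7, 172.4 and 217.8 CPM at 18 °C, 100.1, 122.9 and 161.2 CPM at 25 °C and 90.9, 111.7 and 135.6 CPM at 29 °C. All 24 libraries at 18 °C lay above the 25 °C median, and 22 of 24 at 29 °C lay below it. The log2 change was 0.42 ± 0.05 at 18 °C (adjusted p = 4.4e-12) and -0.21 ± 0.05 at 29 °C (adjusted p = 0.000726), both against 25 °C. Its difference between 29 °C and 18 °C was -0.63 ± 0.05 (adjusted p = 3.0e-20). The call at 29 °C against 25 °C was lost without replicate 1 (adjusted p = 0.0835), with day 4 alone (0.129) and over hours 0, 8 and 16 alone (0.139).

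The dopamine transporter gene DAT (FBgn0034136; 2R, 16558567 to 16565238, minus strand), whose product clears dopamine from the extracellular space, was higher at 18 °C. Its lowest, median and highest levels were 9.02, 11.1 and 13.01 CPM at 18 °C, 6.70, 7.87 and 10.1 CPM at 25 °C and 5.88, 7.59 and 9.20 CPM at 29 °C. All 24 libraries at 18 °C exceeded the 25 °C median, while 12 of 24 at 29 °C were below it. Relative to 25 °C, the log2 change was 0.46 ± 0.05 at 18 °C (adjusted p = 4.1e-13), a fold of 1.37, and -0.12 at 29 °C, which was not called (95% interval -0.22 to -0.01, adjusted p = 0.0889). The changes of DAT and Ddc at 18 °C differed by less than 1 SE, and without replicate 1 the fitted change of DAT (0.41) was below those of Ddc (0.47) and Dop2R (0.48).

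SerT (FBgn0010414; 2R, 24404595 to 24411074, minus strand), the serotonin transporter, held nearly the same level throughout. Its lowest, median and highest levels were 19.1, 21.3 and 26.5 CPM at 18 °C, 18.4, 21.5 and 26.1 CPM at 25 °C and 18.9, 21.5 and 27.5 CPM at 29 °C. The 95% intervals of its log2 changes were -0.05 to 0.10 at 18 °C and -0.04 to 0.11 at 29 °C, both against 25 °C, and -0.06 to 0.09 at 29 °C against 18 °C. No call was made in any of them, and intervals that narrow leave out a change of the size seen in DAT. When libraries were scaled to neuron markers, SerT was called higher at 18 °C (0.10, adjusted p = 0.0417). That scaling shifts every gene upward at 18 °C, since the mean summed level of these markers was lower there (3717 against 3958 CPM at 25 °C).

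Vmat (FBgn0260964; 2R, 13513132 to 13534251, minus strand), which loads dopamine, serotonin, octopamine and histamine into vesicles, was called higher at 18 °C with a small change. Its lowest, median and highest levels were 345.2, 372.2 and 463.9 CPM at 18 °C, 297.5, 349.3 and 468.1 CPM at 25 °C and 310.7, 348.5 and 386.0 CPM at 29 °C. The 3 ranges overlapped, with 23 of 24 libraries at 18 °C above the 25 °C median and the highest library at 29 °C well below the highest at the other temperatures. The log2 change was 0.10 ± 0.03 at 18 °C against 25 °C (adjusted p = 0.00381), but it was not called without replicate 1 (adjusted p = 0.0895), with day 5 alone (0.03, adjusted p = 0.679) or over hours 0, 8 and 16 alone (adjusted p = 0.128). Its log2 change at 29 °C against 25 °C was -0.02 (95% interval -0.08 to 0.05).

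The octopamine enzymes had no called change at either temperature against 25 °C. Tdc2 (FBgn0050446; 2R, 6684745 to 6689974, minus strand), the neuronal tyrosine decarboxylase, had a lowest, median and highest level of 7.70, 9.23 and 12.1 CPM at 18 °C, 7.41, 9.20 and 12.3 CPM at 25 °C and 6.51, 8.71 and 10.4 CPM at 29 °C. Tbh (FBgn0010329; X, 7995697 to 8027394, plus strand), which converts tyramine to octopamine, had 27.4, 31.0 and 39.1 CPM at 18 °C, 27.3, 32.7 and 41.3 CPM at 25 °C and 26.8, 31.7 and 38.9 CPM at 29 °C. The 3 ranges of Tbh nearly coincided, and those of Tdc2 overlapped with the 29 °C range shifted down. The 95% interval of the log2 change at 18 °C against 25 °C was -0.10 to 0.14 for Tdc2 and -0.15 to 0.02 for Tbh. At 29 °C against 25 °C Tdc2 was at -0.12 (95% interval -0.24 to 0.0017, adjusted p = 0.14) and lower at 12 of 12 time points, and it was called with the replicate block (adjusted p = 0.00433) and with a term for alternating hours (0.0117). Tdc2 was called lower at 29 °C than at 18 °C by a log2 change of -0.13 ± 0.06 (adjusted p = 0.0377), and that call was lost without replicate 1 (adjusted p = 0.0617), without replicate 2 (0.267), on day 4 alone (0.167) or day 5 alone (0.182) and on scaling to neuron markers (0.0558).

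All 3 receptor genes were higher at 18 °C than at 25 °C. Dop1R1 (FBgn0011582; 3R, 14165379 to 14214810, minus strand), a dopamine receptor that raises cyclic AMP and is required in the mushroom body for associative learning, had a lowest, median and highest level of 32.3, 52.5 and 78.2 CPM at 18 °C, 29.1, 43.3 and 65.9 CPM at 25 °C and 32.2, 38.8 and 48.4 CPM at 29 °C. Its ranges overlapped, with 22 of 24 libraries at 18 °C above the 25 °C median. The log2 change was 0.30 ± 0.07 at 18 °C (adjusted p = 0.000233) and -0.20 ± 0.07 at 29 °C (adjusted p = 0.034). With day 5 alone the change at 18 °C was not called (0.19, adjusted p = 0.0939). The change at 29 °C was not called without replicate 1 (adjusted p = 0.338), on day 4 alone (0.603), on day 5 alone (0.053) or over either set of 3 hours (0.434 and 0.0553).

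Dop2R (FBgn0053517; X, 20004680 to 20062706, minus strand), the dopamine receptor that lowers cyclic AMP and acts in part as an autoreceptor, had a lowest, median and highest level of 39.4, 49.0 and 104.6 CPM at 18 °C, 30.9, 40.4 and 70.2 CPM at 25 °C and 19.3, 37.0 and 49.4 CPM at 29 °C. The spread at 18 °C was wide, with a few single libraries high: replicate 1 of day 4, hour 16 had 104.6 CPM, and the next highest library had 82.9 CPM. Even so, 23 of 24 libraries at 18 °C were above the 25 °C median. The log2 change at 18 °C was 0.37 ± 0.08 (adjusted p = 7.1e-05), which was 0.27 and not called without replicate 2 (adjusted p = 0.0583). The 29 °C value against 25 °C was -0.21 ± 0.09, just outside the threshold (adjusted p = 0.0539). That value was -0.05 without replicate 1 (adjusted p = 0.754) and -0.38 without replicate 2, where it was called (0.0482), as it also was with the replicate block (0.0159), with DESeq2 (0.0465) and with a term for alternating hours (0.05 as rounded, under the threshold before rounding).

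Oamb (FBgn0024944; 3R, 20689018 to 20714577, minus strand), an octopamine receptor enriched in the mushroom body, followed the dopamine receptors at 18 °C although the octopamine enzymes did not. Its lowest, median and highest levels were 23.7, 31.0 and 39.3 CPM at 18 °C, 20.3, 26.1 and 32.0 CPM at 25 °C and 20.02, 25.2 and 29.7 CPM at 29 °C. Its ranges overlapped, and its 18 °C mean was above its 25 °C mean at 12 of 12 time points. The log2 change was 0.24 ± 0.05 at 18 °C (adjusted p = 4.6e-06) and -0.08 at 29 °C, not called (95% interval -0.17 to 0.01), both against 25 °C.

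**Figure D2:**
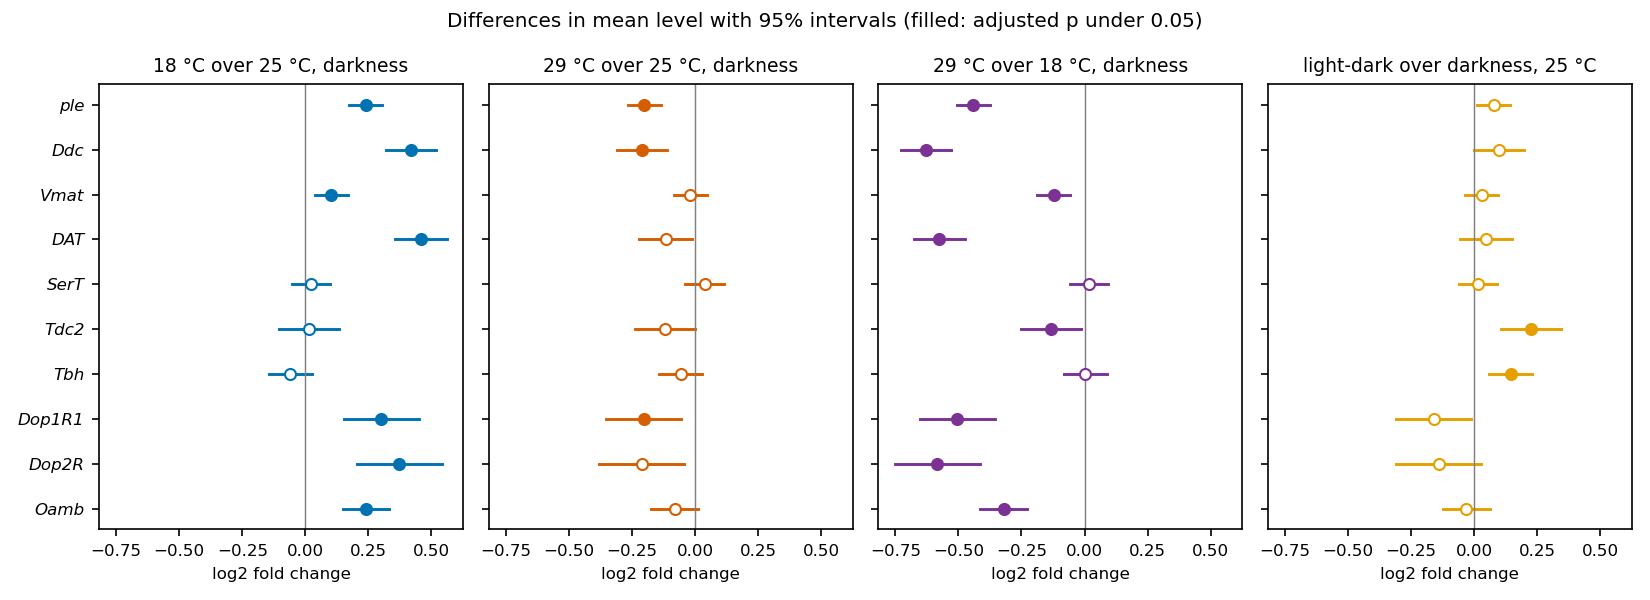
Log2 fold change of each gene (horizontal axis) in the 4 level comparisons, with 95% intervals; filled points are called at an adjusted p under 0.05. At 18 °C against 25 °C, 7 points are filled and lie between 0.10 and 0.46, while SerT, Tdc2 and Tbh sit near 0; in the light-dark cycle against darkness only Tdc2 and Tbh are filled.

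The makeup of the RNA also differed with temperature. The summed level of 8 glial markers ranged over 2647 to 3528 CPM at 18 °C, 2220 to 2973 CPM at 25 °C and 1859 to 2504 CPM at 29 °C, and at 18 °C against 25 °C 5 of the 8 were called higher and 1 lower. The summed level of 12 neuron markers ranged over 2889 to 4781, 2964 to 4794 and 3146 to 4689 CPM at these temperatures, with 2 called higher and 5 lower at 18 °C. The 10 photoreceptor markers ranged over 41890 to 83968, 61495 to 101093 and 63344 to 101444 CPM, with 0 called higher and 9 lower at 18 °C. Epidermis and cuticle markers ranged over 112 to 148, 74.9 to 123 and 67.1 to 108 CPM, and 5 of the 6 tested were called higher at 18 °C. Of the other lists at 18 °C, 2 of 7 fat body markers were higher and 1 lower, 0 of 8 muscle markers higher and 6 lower, 2 of 6 haemocyte markers higher and 3 lower, and 1 of 5 tested testis markers higher and 2 lower. Between 29 °C and 25 °C, 0 of 8 glial markers were called higher and 5 lower, and the other lists had at most 2 called. Scaled to neuron markers, 8 of the 10 genes were called higher at 18 °C, and 5729 of the 10702 tested genes were called. The mean summed level of the neuron markers was 3717 CPM at 18 °C and 3958 CPM at 25 °C. Scaling to them thus shifts every gene upward at 18 °C. The part of these lists in the changes of the 10 genes was not tested.

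The light-dark cycle and darkness were compared at 25 °C to ask what light adds at a fixed temperature. Mean levels over the day differed little: 2 of the 10 genes, the octopamine enzymes Tdc2 and Tbh, were called higher in LD and 0 lower, where 22.8% of all tested genes were called and 11.6% were called higher, a share near that of all genes. Tdc2 had a lowest, median and highest level of 8.56, 10.4 and 14.5 CPM in LD and 7.41, 9.20 and 12.3 CPM in DD. Tbh had 30.95, 36.5 and 44.6 CPM in LD and 27.3, 32.7 and 41.3 CPM in DD. The ranges overlapped for both, as they did for the other 8 genes (0.00934% of all tested genes did not overlap), and 20 of 24 LD libraries were above the DD median in each case.

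The log2 change in LD against DD was 0.23 ± 0.06 for Tdc2 (adjusted p = 0.00308; higher at 12 of 12 time points) and 0.14 ± 0.04 for Tbh (adjusted p = 0.0087; 11 of 12). Tdc2 was not called without replicate 2 (adjusted p = 0.255) or on day 4 alone (0.248). Tbh was not called without replicate 1 (adjusted p = 0.18), without replicate 2 (0.0812), on either day alone (0.0766 and 0.309) or over hours 0, 8 and 16 alone (0.0621). Over hours 4, 12 and 20 alone 3 of the 10 genes were called, the third being Ddc (0.14, adjusted p = 0.0261), where 2234 of the 10702 tested genes were called. For the other 8 genes the log2 changes lay between -0.16 for Dop1R1 (95% interval -0.31 to -0.01, adjusted p = 0.112) and 0.10 for Ddc (-0.0012 to 0.20, adjusted p = 0.148). Of the marker lists, glia had 5 of 8 called higher in LD and 0 lower, with a summed level of 2398 to 3295 CPM in LD and 2220 to 2973 CPM in DD. Photoreceptors had 1 of 10 higher and 2 lower, with a mean summed level of 64430 ± 14910 CPM in LD and 85548 ± 13967 CPM in DD (SD). Fat body had 3 of 7 higher and 1 lower and neurons 1 of 12 higher and 2 lower, and 0 were called in the muscle, haemocyte, epidermis and testis lists. Their part in the changes of Tdc2 and Tbh was not tested. ple, whose mean hardly moved (0.08, adjusted p = 0.0746), differed instead in its profile over the hours.

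ple was the 1 gene of the 10 with a called daily rhythm in the light-dark cycle. The rhythm test fits a 24 h cosine and sine to the 6 hours, its amplitude is how far the peak rises above the daily mean in log2 units, and 14.2% of all tested genes were called in LD. At hours 0, 4, 8, 12, 16 and 20 the means of 4 libraries were 104.7 ± 5.57, 85.6 ± 10.1, 63.9 ± 2.74, 44.2 ± 4.59, 44.0 ± 5.38 and 60.9 ± 4.30 CPM (SD). Every library of hour 0, at 97.9 CPM or more, lay above every library of hour 16, at 50.5 CPM or less. These were the hours of highest and lowest mean, which differed by 2.38-fold. Separation of the highest from the lowest LD hour was not particular to ple. It was also seen in Ddc, Vmat, SerT, Tdc2, Tbh and Dop1R1, with hour means at most 1.41-fold apart (Tdc2), and not in DAT, Dop2R and Oamb. Its share over all tested genes was not counted. The fitted amplitude was 0.64 ± 0.03 with a peak at hour 1.85 ± 0.195 (adjusted p = 4.8e-29), a 2.44-fold swing between trough and peak. Among the 1520 genes called rhythmic in LD, the amplitude of ple ranked 111, and their median amplitude was 0.21. The call held on day 4 alone (0.60) and on day 5 alone (0.69).

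In darkness the profile of ple was flatter. In DD at 25 °C its hour means were 67.5 ± 4.12, 63.9 ± 7.81, 64.7 ± 6.72, 57.1 ± 3.14, 56.5 ± 4.22 and 54.5 ± 5.32 CPM at hours 0 to 20. The 4 LD libraries were all above the 4 DD libraries at hours 0 and 4, by 1.55-fold and 1.34-fold between means, and all below them at hours 12 and 16, at 0.77 and 0.78 times the DD mean. At hours 8 and 20 the libraries of both conditions overlapped. Single hours without overlap were also seen for SerT (hour 4), Tdc2 (hours 8 and 12) and Tbh (hour 8), each higher in LD. The share of all tested genes separated at each hour was not counted. The fitted rhythm differed between LD and DD at 25 °C: the curve of the LD minus DD difference, which takes in both amplitude and timing, had an amplitude of 0.53 ± 0.05 (adjusted p = 4.3e-15). That made 1 of the 10 genes with a called rhythm difference, where 5.26% of all tested genes were called. The difference was called under each of 14 alternatives run for it, with values between 0.47 and 0.60.

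A small profile of ple remained in darkness at the 2 warmer temperatures without passing the 24 h test. Its amplitude was 0.14 ± 0.03 with a peak near hour 3.95 at 25 °C (p = 0.000352, adjusted p = 0.0652), and 0.13 ± 0.03 with a peak near hour 6.07 at 29 °C (adjusted p = 0.179). At 18 °C the amplitude was 0.05 (adjusted p = 0.945), and the hour means ran between 67.5 ± 5.84 CPM at hour 0 and 73.7 ± 5.39 CPM at hour 12. At 25 °C, DESeq2 called the rhythm (adjusted p = 0.0452), and so did edgeR with a term for alternating hours (0.0254) or a replicate block (0.0246). When hours were fitted as 6 separate levels, ple was called at 25 °C (adjusted p = 0.00405) and 29 °C (0.0242). Of 16 alternatives, 4 called the profile at 25 °C and 1 at 29 °C. At 25 °C it was not called without replicate 1 (adjusted p = 0.706) or without replicate 2 (0.756). On single days its amplitude there was 0.20 on day 4 and 0.09 on day 5, neither called. The curve of the difference in rhythm between 18 °C and 25 °C had an amplitude of 0.19 ± 0.05 (p = 0.000546, adjusted p = 0.245) and was not called.

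**Figure D3:**
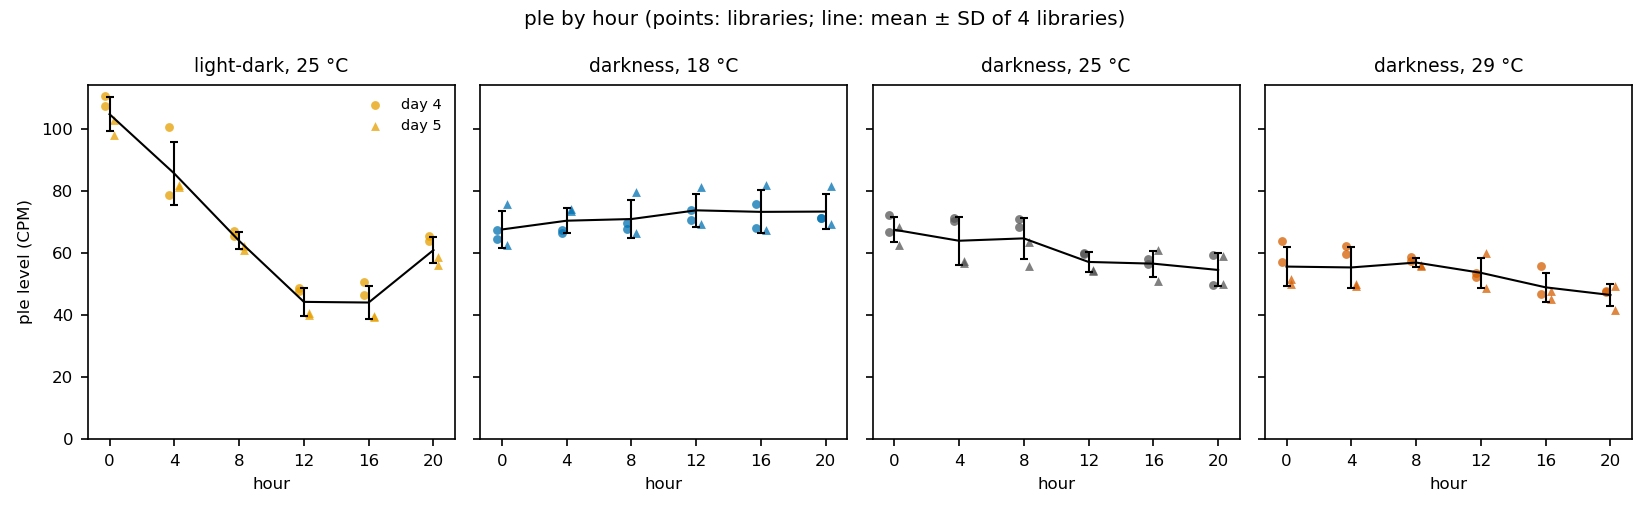
ple level (vertical axis, CPM) by hour (horizontal axis) in each condition; circles are libraries of day 4, triangles of day 5, and the line is the mean ± SD of 4 libraries. The light-dark panel runs between 104.7 CPM at hour 0 and 44.0 CPM at hour 16, while in darkness no hour mean leaves the range 67.5 to 73.7 CPM at 18 °C, 54.5 to 67.5 CPM at 25 °C or 46.4 to 56.9 CPM at 29 °C.

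No other gene of the 10 had a called 24 h rhythm. In darkness 0 of 10 were called by edgeR at 18 °C, 25 °C and 29 °C, where 0.196%, 0.439% and 0.14% of all tested genes were called. At each temperature 1 of the 10 had an unadjusted p under 0.05, where 556, 858 and 622 of the 10702 tested genes did. DESeq2 called 0, 1 and 0 of the 10, where it called 24, 74 and 24 of all tested genes. At 18 °C the gene with an unadjusted p under 0.05 was Dop2R (amplitude 0.24 ± 0.08, p = 0.0173), whose hour 16 mean of 72.3 ± 26.1 CPM held the single library at 104.6 CPM. In LD, the amplitude was 0.14 ± 0.05 for Ddc with a peak near hour 9.52 (adjusted p = 0.138), and 0.10 ± 0.04 for SerT with a peak near hour 6.35 (adjusted p = 0.135). Over hours 4, 12 and 20 alone both were called in LD (Ddc 0.18, adjusted p = 0.0189; SerT 0.21, adjusted p = 0.000198). No rhythm difference from 25 °C was called at 18 °C or 29 °C (0 of 10, where 0.0934% and 0% of all tested genes were called).

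Tdc2, Tbh and Vmat instead alternated between sampling times. In all 4 conditions Tdc2 was higher at hours 0, 8 and 16 than at hours 4, 12 and 20, with means of 12.3 ± 1.36 and 9.63 ± 0.60 CPM in LD, 10.3 ± 1.10 and 8.54 ± 0.52 CPM at 18 °C, 10.4 ± 1.37 and 8.33 ± 0.89 CPM at 25 °C and 9.41 ± 0.60 and 7.80 ± 0.82 CPM at 29 °C in darkness (SD over 12 libraries). A test of this contrast, added after seeing the data, gave log2 differences for Tdc2 of 0.34 ± 0.05 in LD and 0.28 ± 0.05, 0.32 ± 0.05 and 0.27 ± 0.05 at 18 °C, 25 °C and 29 °C in darkness, each called (adjusted p of 3.5e-04 or less). For Tbh the differences were 0.23, 0.20, 0.19 and 0.15 in the same order, each called (adjusted p of 0.0216 or less). For Vmat they were called in LD (0.13), at 18 °C (0.11, adjusted p = 0.0421) and at 25 °C (0.15). At 29 °C the Vmat difference was also 0.11, just outside the threshold (adjusted p = 0.0546).

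In LD 4 of the 10 genes were called in this contrast, the fourth being ple (0.12, adjusted p = 0.0388), where 18.3% of all tested genes were called and 7.31% were called higher. At 18 °C, 25 °C and 29 °C in darkness 3, 3 and 2 were called, where 8.04%, 11.5% and 9.14% of all tested genes were called and 2.8%, 5.39% and 3.77% were called higher. All these calls in the 10 genes were higher at hours 0, 8 and 16. Marker lists also differed between these sets of hours, some in the same direction and some in the other. The mean summed level at hours 0, 8 and 16 over that at hours 4, 12 and 20 was 0.69 to 0.83 for photoreceptor markers, 1.196 to 1.27 for muscle, 1.11 to 1.30 for fat body, 1.10 to 1.23 for haemocytes, 1.04 to 1.11 for epidermis and cuticle, 0.93 to 1.03 for testis, 0.93 to 0.98 for neurons and 1.003 to 1.02 for glia over the 4 conditions. Their part in the alternation of Tdc2, Tbh and Vmat was not tested.

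With hours fitted as 6 levels, which takes in this alternation, 5 of the 10 genes were called in LD (ple, Vmat, SerT, Tdc2 and Tbh), where 23.5% of all tested genes were called. At 18 °C 1 gene (Tdc2), at 25 °C 4 genes (ple, Vmat, Tdc2 and Tbh) and at 29 °C 2 genes (ple and Tdc2) were called, where 3.04%, 7.18% and 3.15% of all tested genes were. ple was the 1 gene of the 10 whose 6-hour profile differed between LD and DD at 25 °C (adjusted p = 1.4e-14), where 4.85% of all tested genes were called. Between the temperatures 0 of 10 differed in darkness, where 0.178% of all tested genes differed from 25 °C at 18 °C and 0% at 29 °C.

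**Figure D4:**
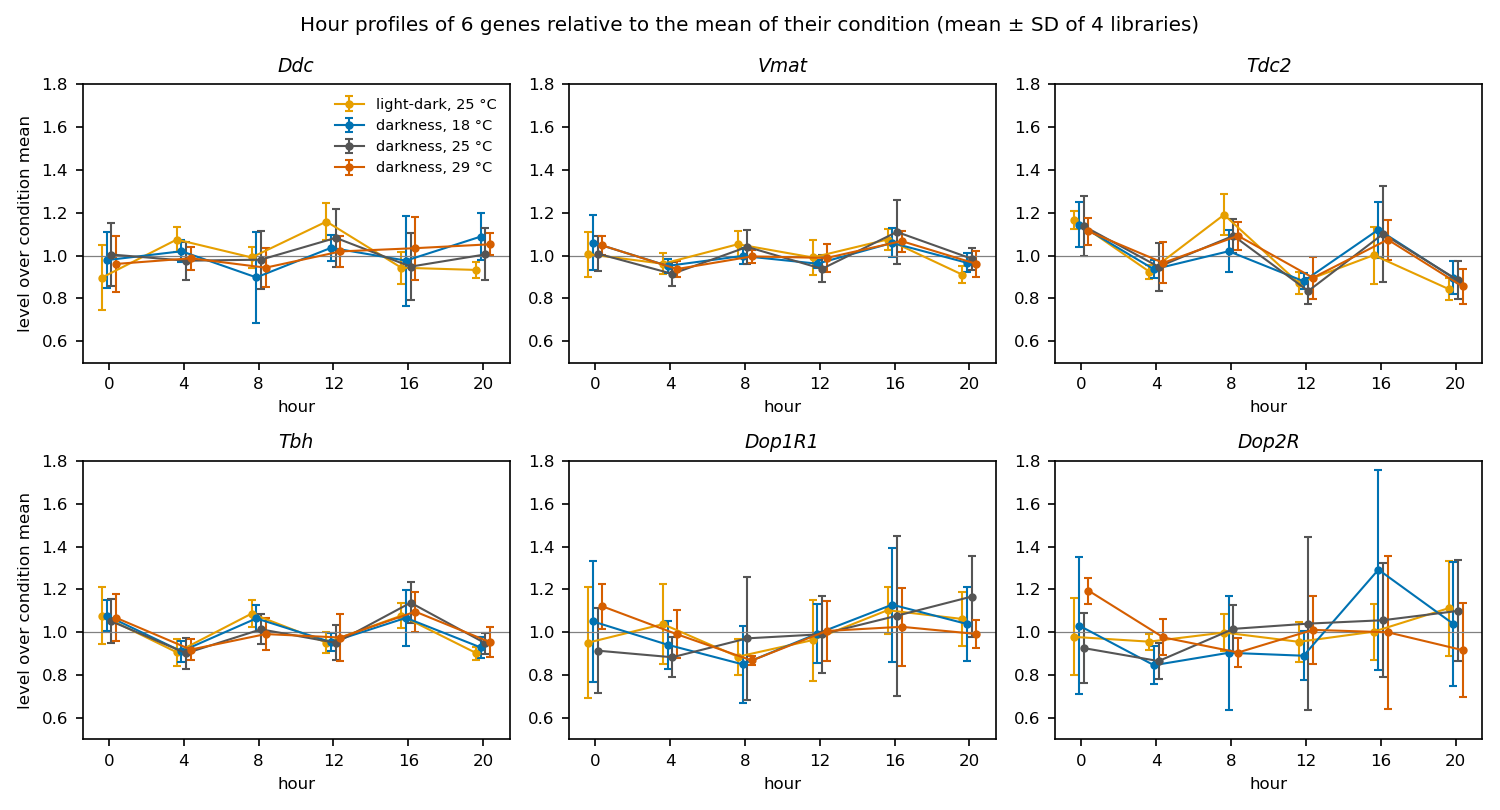
Hour means of 6 genes (vertical axis, level divided by the mean of its condition; horizontal axis, hour) with SD over 4 libraries. Tdc2 and Tbh zigzag in all 4 conditions with high points at hours 0, 8 and 16, Vmat does so weakly, and Dop2R at 18 °C has its widest error bar at hour 16.

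Levels on day 5 and day 4 were compared within each condition. For 0 of the 40 pairs of gene and condition was the day shift called by edgeR, where 0.168% of all tested genes were called in LD and 2.21%, 2.71% and 0.29% at 18 °C, 25 °C and 29 °C in darkness. Of the 10702 tested genes, 1841 had an unadjusted p under 0.05 at 18 °C and 1769 at 25 °C in darkness. Among the 10 genes, 1, 1, 2 and 1 had one in LD and at 18 °C, 25 °C and 29 °C, so such counts do not set them apart at 18 °C or 25 °C. ple had 3 of these 5, with log2 shifts of day 5 over day 4 of -0.18 ± 0.05 in LD (adjusted p = 0.109), -0.13 ± 0.05 at 25 °C (0.108) and -0.13 ± 0.05 at 29 °C (0.378). None of these passed the adjusted threshold.

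The wider amine pathway was described through 28 other genes, all of which were tested: cofactor, synthesis and breakdown enzymes, the transporter gene prt and the remaining amine receptors. At 18 °C against 25 °C 12 were called higher and 4 lower, where 32.7% of all tested genes were called higher and 34.1% lower, and their median log2 change was 0.04. The widest changes among the called genes were in t, which fell, and in Pu, DopEcR and prt, which rose. Pu, the GTP cyclohydrolase that supplies the cofactor of tyrosine hydroxylase, had a lowest, median and highest level of 114.3, 132.4 and 140.8 CPM at 18 °C and 75.6, 92.0 and 107.6 CPM at 25 °C. The 2 groups of libraries did not overlap, a separation that 4.64% of all tested genes reached. The log2 change was 0.49 ± 0.03 (adjusted p = 1.4e-25). DopEcR, a receptor for dopamine and ecdysone, rose by 0.47 ± 0.08 on the log2 scale (adjusted p = 6.3e-07). prt, a vesicular transporter related to Vmat, rose by 0.47 ± 0.05 on that scale (adjusted p = 1.3e-14).

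The gene t encodes the hydrolase that frees dopamine and histamine from their β-alanyl conjugates. Its lowest, median and highest levels were 168, 327.5 and 431.8 CPM at 18 °C and 288.1, 500.1 and 643.1 CPM at 25 °C, with overlapping ranges and a log2 change of -0.68 ± 0.09 (adjusted p = 2.0e-10). t is expressed in photoreceptors, and 9 of 10 photoreceptor markers were also called lower at 18 °C. Their part in the change of t was not tested. For 29 °C against 25 °C 2 of the 28 were called higher and 5 lower, where 13.8% and 13% of all tested genes were, with Pu at -0.22 ± 0.03, the serotonin receptor genes 5-HT1B at -0.22 ± 0.05 and 5-HT7 at -0.18 ± 0.04, and the N-acetyltransferase gene AANATL2 at 0.16 ± 0.06. For 29 °C against 18 °C 5 were called higher and 14 lower, where 38% and 36.5% of all tested genes were. Pu (-0.71 ± 0.03) and AANAT1 (0.50 ± 0.04) had libraries that did not overlap between 29 °C and 18 °C. The other wide changes of this step were in t (0.70 ± 0.09), DopEcR (-0.66 ± 0.08) and b (-0.60 ± 0.13), with overlapping libraries. Separation was seen in 11.1% of all tested genes.

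**Figure D5:**
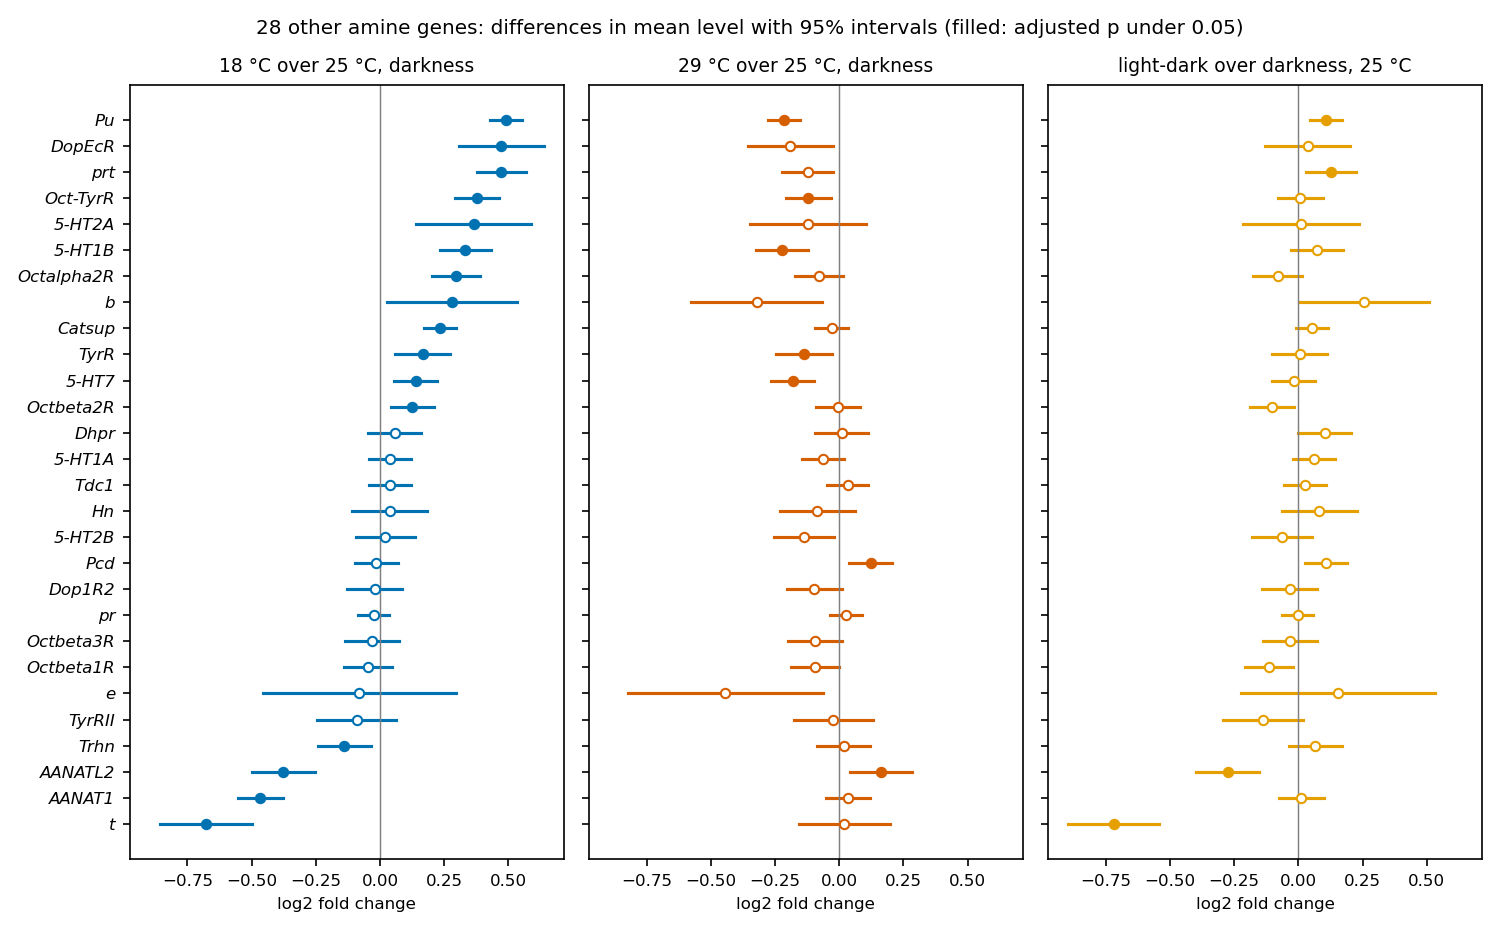
Log2 fold changes of the 28 other amine genes (horizontal axis) with 95% intervals, sorted by the change at 18 °C against 25 °C; filled points are called at an adjusted p under 0.05. Pu is at the top (0.49) and t at the bottom (-0.68) for 18 °C, and t is also the lowest in the light-dark cycle against darkness (-0.72).

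Light changed few mean levels in the pathway as well. In LD against DD at 25 °C 2 of the 28 were called higher and 2 lower, where 11.6% and 11.2% of all tested genes were. The higher were prt (0.13 ± 0.05, adjusted p = 0.0474) and Pu (0.11 ± 0.03, adjusted p = 0.00696). The lower were t (-0.72 ± 0.09, adjusted p = 7.6e-10) and AANATL2 (-0.28 ± 0.06, adjusted p = 4.7e-04). Photoreceptor markers had a mean summed level of 64430 CPM in LD and 85548 CPM in DD, with 1 of 10 called higher and 2 lower. Their part in the change of t was not tested. A 24 h rhythm was called in 6 of the 28 in LD, where 14.2% of all tested genes were. Of these, the curve of t peaked at hour 22.4 ± 0.379 with an amplitude of 0.90 ± 0.09. The enzyme gene b, whose product makes the β-alanine used in those conjugates, had 0.63 ± 0.13 with a peak at hour 20.1 ± 0.769. AANAT1, which acetylates dopamine and serotonin, had 0.31 ± 0.04 with a peak at hour 6.33 ± 0.534, and Tdc1, the non-neuronal tyrosine decarboxylase, had 0.26 ± 0.04 with a peak at hour 16.5 ± 0.596. The rhythm of t, AANAT1 and Tdc1 also differed between LD and DD (3 of 28, where 5.26% of all tested genes did). In darkness 0 of the 28 had a called rhythm at any temperature, where 0.14% to 0.439% of all tested genes had one, with 2, 2 and 1 at an unadjusted p under 0.05 at 18 °C, 25 °C and 29 °C. On day 5 against day 4 AANAT1 (-0.21 ± 0.06, adjusted p = 0.0481) and Pu (-0.16 ± 0.04, adjusted p = 0.0321) were called lower in darkness at 25 °C (2 of 28, where 2.71% of all tested genes were called).

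Similarity of pattern was measured as Pearson's r over the 48 means of condition, day and hour (log2 CPM), which share library depth and collection times, and is a description only. The closest gene outside the 10 was CG14830 for ple (r = 0.88), CG42337 for Ddc (0.93), Ten-m for Vmat (0.88), Hip14 for DAT (0.90), Proc for Tdc2 (0.88), CG43902 for Tbh (0.90), pros for Dop1R1 (0.96), Tlk for Dop2R (0.86) and nrm for Oamb (0.92). SerT had no close match, with CG3588 the nearest at 0.58. Next in order stood CG9519 for ple (0.86), Caper for Ddc (0.93), PlexA for Vmat (0.86), HmgD for DAT (0.89), CG31121 for SerT (0.55), Hug for Tdc2 (0.87), Lrp4 for Tbh (0.87), mamo for Dop1R1 (0.95), Smr for Dop2R (0.85) and CG6912 for Oamb (0.90). Between the 10 genes, once the mean of each condition was taken out, the most alike pairs were Vmat and Tbh (0.85), Tdc2 and Tbh (0.65) and Dop1R1 and Dop2R (0.57), and the least alike were Ddc and Tdc2 (-0.44).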

How the data were processed

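Estimated counts per gene for 96 libraries were used as the authors deposited them, not normalised; 40.2% of the nonzero values are not whole. Per the submitters' processing notes the tools were fastp 0.23.2, HISAT2 2.2.1 and featureCounts of Subread 2.0.8; the genome build, the strand setting and the treatment of reads matching several genes are not given in the sources used here. Per the labels' protocols, poly-A RNA was made into directional libraries by an outside company. The values were rounded to whole numbers and tested with edgeR 4.0.16 in R 4.3.3 (filterByExpr, 10702 genes; TMM). Each condition had its own mean, day shift and pair of 24 h cosine and sine terms, 16 columns with 80 residual degrees of freedom, and Benjamini-Hochberg adjustment ran over all tested genes. DESeq2 1.42.0 was an alternative. The design had assumed whole counts; the tests were kept. Standard errors of amplitude and peak hour come from the delta method. For 95% intervals the t distribution was used. CPM are scaled by TMM. The tests were tried on simulated counts. FlyBase identifiers were matched to BDGP6.54 symbols (17607 of 17610). Reads carry no molecular identifiers, so depth speaks to counting error alone; 1 CPM stands for about 21.1 counts at the median depth. No 2 libraries were identical, with 0 identical pairs. The 10 genes, the pathway list and the marker lists were chosen with earlier results of these data known. All 10 genes are named; of the pathway list, at most the 4 called genes with the widest change per comparison, and beyond that rule AANAT1 for its separation at 29 °C against 18 °C, chosen after its values were seen. Of the genes most alike in pattern, 2 per gene are named. Alternatives covered scaling, filters, the tool, each replicate and day, a replicate block, the conditions compared alone, hours as 6 levels, neuron-marker scaling, no day term and, added after seeing the data, the alternating hours.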

Additional observations from a re-analysis of the deposited data

Results flagged for a closer look

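The rhythm of ple differed between the light-dark cycle and darkness at 25 °C, by a test of the difference itself: the fitted curve of the difference, which takes in both amplitude and timing, had an amplitude of 0.53 ± 0.05 on the log2 scale (edgeR quasi-likelihood test, adjusted p = 4.3e-15). Without replicate 1 the value was 0.55, and without replicate 2 it was 0.53.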

How the results depend on the processing

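Limits. The 24 h curve rests on 6 hours sampled on 2 days, and the labels give no collection run or sequencing batch. DAT and Tdc2, at 5.88 to 14.5 CPM, carry more counting error than Vmat.

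Of the counts of called genes, the following moved by over 1.5 times; the count over all tested genes under the same setting follows in brackets. At 29 °C against 25 °C (3 of 10; all genes 2864) the count was 1 on day 4 alone [798], 6 with the replicate block [4108], 5 with the alternating-hour term [3137], 1 over hours 0, 8 and 16 alone [938], and 1 to 3 without either replicate [1051 to 2094]. In LD against DD (2; all genes 2440) it was 0 on day 4 alone [566], 1 on day 5 alone [882], 5 with the replicate block [3846], 1 over hours 0, 8 and 16 alone [465], and 0 to 2 without either replicate [805 to 1866]. The rhythm count was 1 at 18 °C (0) [325], 4 at 25 °C (0) [768] and 2 at 29 °C (0) [337] in darkness and 5 in LD (1) [2515] with hours as 6 levels. At 25 °C it was 1 with the replicate block [69], the alternating-hour term [73] or DESeq2 [74]. In LD it was 2 with the block [1773] or the alternating-hour term [1803], 3 with neuron-marker scaling [698] and 3 over hours 4, 12 and 20 alone [1559]. The rhythm difference at 18 °C against 25 °C (0) was 1 with the replicate block [75], and that of LD against DD (1) was 2 over hours 4, 12 and 20 alone [789]. Over 3 hours alone the rhythm tests take in any difference between the hour means and cannot show a 24 h curve. The day shift (0; not counted over all genes) was 1 with the alternating-hour term, 2 with the block and 0 to 2 without either replicate. The causes were not tested.

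Replicate numbers were not taken to pair the libraries, though a check did not settle whether they do. Between conditions, the difference between replicates 1 and 2 correlated at a median r of 0.064 for 18 °C in darkness with LD. For the other pairs of conditions the median was 0.11 to 0.164. The range was -0.199 to 0.619, and r was over 0.1 in 4 to 10 of 12 time points. With a replicate block, calls over all tested genes rose from 2864 to 4108 at 29 °C against 25 °C and from 2440 to 3846 in LD against DD.

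The signs that reversed were all in changes that were not called. At 18 °C against 25 °C these were SerT on day 5 (-0.0037), Tdc2 on day 4 (-0.0371) and over hours 0, 8 and 16 (-0.0055), with -0.0103 to 0.0566 without either replicate, and Tbh on day 4 (0.0213) and with neuron-marker scaling (0.0209). At 29 °C against 25 °C it was Vmat, on day 4 (0.0120), with neuron-marker scaling (0.0070), over hours 4, 12 and 20 (0.0099), and -0.0530 to 0.0113 without either replicate. At 29 °C against 18 °C they were SerT with the conditions alone (-0.0051) and neuron-marker scaling (-0.0437), and Tbh with DESeq2 size factors (-0.0019), day 4 (-0.0424), the conditions alone (-0.0179), neuron-marker scaling (-0.0608), hours 0, 8 and 16 (-0.0249) and DESeq2 (-0.0019), with -0.0629 to 0.0576 without either replicate. In LD against DD they were Vmat on day 5 (-0.0012), DAT (-0.0062) and SerT (-0.0401) over hours 0, 8 and 16, and Oamb with neuron-marker scaling (0.0390). There, Vmat was -0.0305 to 0.0822 and DAT -0.0752 to 0.154 without either replicate. For single genes, 1570 of the alternative values kept direction and call, 37 gained a call and 28 lost one.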
